A study of Rattus norvegicus with 20 samples.

Results

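The 8 genes described here encode liver enzymes that oxidise or reduce carbonyl groups and alcohols: Akr1b7, Akr7a3, Akr7a2, Akr1a1, Aldh1a1, Cryl1, Dhrs7l1 and Hsd17b2. They were read from the probe sets that the array annotation maps to exactly 1 of these symbols, which gave 8 probe sets, 1 per gene, among the 14217 distinct symbols of the array. The study measured liver RNA from 20 male Harlan Sprague-Dawley rats with 1 Affymetrix array per rat. The rats received isodecyl diphenyl phosphate (IDDP), a phosphate ester with aryl groups, by gavage in corn oil as 4 daily doses, and the left liver lobe was sampled on day 5. There were 5 controls given corn oil alone (0 mg/kg) and 5 dosed groups of 3 rats, given 66, 132, 263.6, 527.1 or 1054.2 mg/kg a day. The lowest dose is 0.169 mmol/kg and the highest 2.7 mmol/kg, and all groups shared strain, sex, vehicle and route. Ages of the rats are not stated in the labels. The genes were chosen by their measured change from controls at 1054.2 mg/kg, with the other doses also known, so their values at that dose, and the step to it from 527.1 mg/kg, are given as a description without a test. The comparisons of the lower doses share the 5 control rats with it. The difference of 527.1 minus 66 mg/kg uses neither the controls nor the top dose. Its error and p-value still take the spread from all 20 arrays.

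Aldo-keto reductases are soluble enzymes that use NADPH to reduce aldehydes and ketones to alcohols, and short-chain dehydrogenases are a separate family that works in both directions on steroids, retinoids, sugars and lipids. In hepatocytes both families clear reactive aldehydes, many of them of foreign or lipid origin, and set the level of active steroids. Not all of the 8 genes belong to these families. Aldh1a1 is an aldehyde dehydrogenase, which oxidises retinaldehyde to retinoic acid, and Cryl1 encodes lambda-crystallin, a relative of the 3-hydroxyacyl-CoA dehydrogenases that oxidises L-gulonate. The 4 aldo-keto reductases are Akr7a3 and Akr7a2, which reduce dialdehydes and succinic semialdehyde, Akr1a1, which reduces glucuronate to gulonate, and Akr1b7, which resembles aldose reductase and was first described in the mouse vas deferens. Hsd17b2, which oxidises estradiol and testosterone to weaker forms, and Dhrs7l1 are the short-chain dehydrogenases.

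Across the doses the 8 genes followed 4 courses. Akr7a3, Akr7a2, Cryl1 and Aldh1a1 were already higher than in controls at the low doses and climbed with dose. Hsd17b2 stood little above controls at 66 mg/kg and made most of its increase between 263.6 and 527.1 mg/kg. Akr1b7 and Dhrs7l1 overlapped the controls at every dose up to 527.1 mg/kg and differed from them, in opposite directions, at 1054.2 mg/kg, and Akr1a1 overlapped the controls at every dose.

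The stretches of 250 bases before the annotated start of 4 of these genes are printed for the contrast between them: Akr1b7 and Dhrs7l1 stood wholly apart from the controls at the top dose alone, and Akr7a3 and Akr7a2, which lie near each other on chromosome 5 with 3 annotated genes or pseudogenes between them, climbed together. They are taken from RefSeq on the assembly GRCr8, which held 7 of the 8 genes in the table used and not Hsd17b2, and run 5′ to 3′ on the strand of the gene: chr4:64043720-64043969 (+) for Akr1b7, chr6:97047900-97048149 (-) for Dhrs7l1, chr5:156876471-156876720 (+) for Akr7a3 and chr5:156835339-156835588 (+) for Akr7a2. Capitals mark the nuclear receptor half-site AGGTCA and its variant AGTTCA, on either strand.
Akr1b7: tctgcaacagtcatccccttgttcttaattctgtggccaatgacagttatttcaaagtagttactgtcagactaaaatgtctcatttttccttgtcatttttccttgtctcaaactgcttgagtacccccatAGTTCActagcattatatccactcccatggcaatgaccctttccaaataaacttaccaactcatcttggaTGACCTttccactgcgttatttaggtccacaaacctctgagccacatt
Dhrs7l1: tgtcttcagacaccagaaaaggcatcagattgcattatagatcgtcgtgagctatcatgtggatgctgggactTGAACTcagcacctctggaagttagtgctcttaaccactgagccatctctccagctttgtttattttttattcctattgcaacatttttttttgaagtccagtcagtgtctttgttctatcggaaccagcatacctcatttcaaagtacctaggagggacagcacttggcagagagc
Akr7a3: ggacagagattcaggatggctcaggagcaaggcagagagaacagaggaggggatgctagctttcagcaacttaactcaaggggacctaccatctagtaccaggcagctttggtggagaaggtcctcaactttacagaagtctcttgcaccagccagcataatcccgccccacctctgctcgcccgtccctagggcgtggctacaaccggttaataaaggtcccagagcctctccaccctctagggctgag
Akr7a2: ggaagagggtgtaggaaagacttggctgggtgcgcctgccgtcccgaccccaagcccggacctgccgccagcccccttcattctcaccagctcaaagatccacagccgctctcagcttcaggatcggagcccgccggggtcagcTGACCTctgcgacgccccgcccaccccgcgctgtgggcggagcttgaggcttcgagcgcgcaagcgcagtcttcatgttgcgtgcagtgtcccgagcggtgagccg
AGGTCA was found in 2 of the 7 stretches (Akr1b7 and Akr7a2), against 14.1% of the 33469 promoters of the same length, and AGTTCA in 2 (Akr1b7 and Dhrs7l1), against 12.2%. The core of the antioxidant response element, TGACNNNGC on either strand, was in 0 of the 7 and in 10.1% of all promoters. The E-box CACGTG, to which clock factors bind, was in 0 of the 7 and in 5.59% of all. The motifs overlap in none of the printed stretches. These are matches of letters in a short window, and nothing about binding was measured.

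The probe sets differ in brightness. Those of Akr7a3, Akr7a2, Akr1a1, Aldh1a1, Dhrs7l1 and Hsd17b2 lay above the 96th percentile of mean signal among the 31042 probe sets tested, Cryl1 at the 90.3 percentile and Akr1b7 at the 24.4 percentile. The table holds no detection calls, so whether Akr1b7 stood above background at the lower doses was not tested. Hepatocyte markers were bright in every rat, with a mean over 7 genes (Alb, Apoa1 and others) of 13.93 to 14.05 log2 in controls and 13.80 to 13.99 over all dosed rats. The per-rat means at 132, 263.6 and 1054.2 mg/kg lay wholly below those of controls, while 0 of the 7 genes passed limma's test at any dose. RNA integrity was read from the beta-actin and GAPDH controls of the array, as the signal at the 3' end minus that at the 5' end. This difference grows as RNA degrades. It was 1.24 to 2.47 log2 on 19 arrays and 3.25 on 132 mg/kg replicate 2. The next highest was 263.6 mg/kg replicate 2 (2.47). Medians of the arrays lay between 6.32 and 6.41 log2, and over all probe sets the arrays had pairwise Pearson's r of 0.977 to 0.996.

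**Figure D1:**
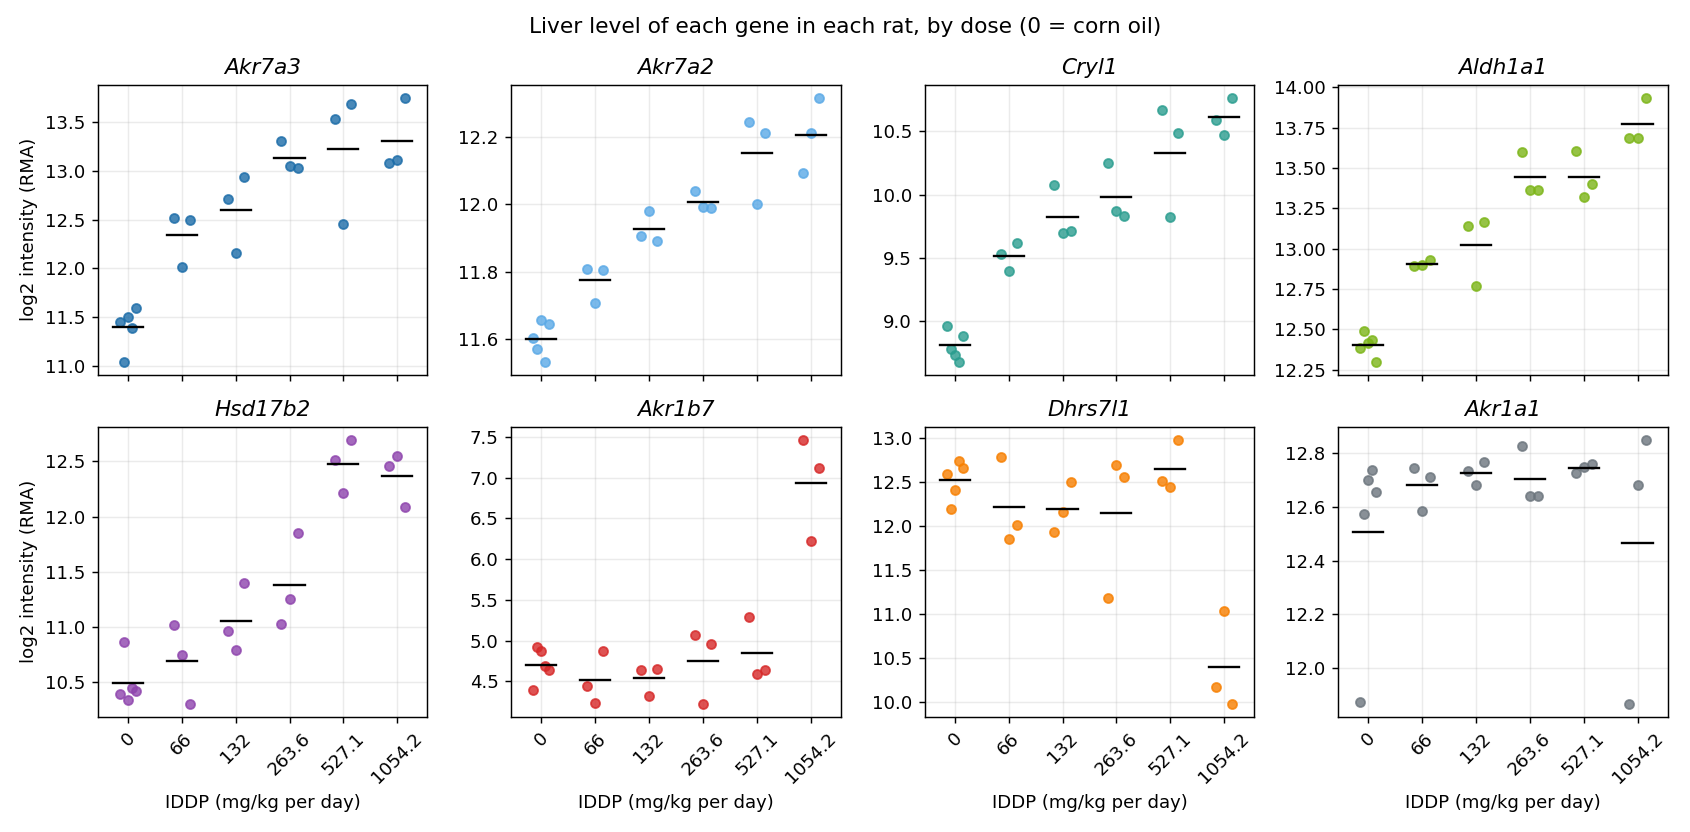
Level of each gene in each of the 20 rats (log2 intensity, vertical axis with its own range in each panel) against the daily dose of IDDP, equally spaced, with 0 for corn oil. Points are rats and bars are group means (n = 5 at 0 mg/kg, n = 3 at each dose). Akr7a3, Akr7a2, Cryl1 and Aldh1a1 climb over the doses, while the groups of Akr1b7 and Dhrs7l1 overlap the controls at every dose but 1054.2 mg/kg.

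Akr7a3 is the aflatoxin aldehyde reductase of rat liver. Its log2 level was 11.45, 11.05, 11.51, 11.39 and 11.60 in the controls, 12.52, 12.02 and 12.50 at 66 mg/kg, 12.71, 12.16 and 12.93 at 132, 13.31, 13.04 and 13.03 at 263.6, 13.53, 12.45 and 13.68 at 527.1, and 13.07, 13.10 and 13.74 at 1054.2 mg/kg. Every rat of every dose group lay above the highest control, and the groups of 263.6, 527.1 and 1054.2 mg/kg overlapped one another. The mean was 0.95 ± 0.23 log2 higher than in controls at 66 mg/kg (SE, adjusted p = 0.914) and 1.20 ± 0.23 at 132 mg/kg (adjusted p = 0.0553), neither of which passed limma's test over all probe sets. The difference at 132 mg/kg did pass with the 3' minus 5' covariate (adjusted p = 0.00963) and with only the compared groups in the fit (0.0410). It also passed after quantile normalization again (0.0428), without dim probe sets (0.0432) and with centred medians (0.0462). Without 132 mg/kg replicate 3 it passed too (0.0338), in a fit that called 1482 probe sets, against 21 with all arrays. The gene rose 3.31-fold at 263.6 mg/kg (1.73 ± 0.23, adjusted p = 0.00124) and 3.54-fold at 527.1 mg/kg (1.82 ± 0.23, adjusted p = 0.000333). Its level was 3.75-fold higher at 1054.2 mg/kg (1.91 ± 0.23 log2), so that 49.6% of this change on the log2 scale was there at 66 mg/kg, 63.0% at 132, 90.6% at 263.6 and 95.5% at 527.1 mg/kg. The last step, 1054.2 minus 527.1 mg/kg, was 0.09 ± 0.26 log2. That step was -0.30 without 527.1 mg/kg replicate 2, the lowest rat of its group.

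Akr7a2, its close relative, moved in the same order over a narrower range. Its log2 level ran from 11.53 to 11.66 in the 5 controls, and was 11.81, 11.71 and 11.81 at 66 mg/kg, 11.90, 11.98 and 11.89 at 132, 12.04, 11.99 and 11.99 at 263.6, 12.24, 12.00 and 12.21 at 527.1, and 12.09, 12.21 and 12.31 at 1054.2 mg/kg. No dosed rat overlapped the controls. From 66 to 263.6 mg/kg each group also lay wholly above the group before it, although none of these neighbouring steps passed limma's test. Against controls the gene rose by 0.40 ± 0.08 log2 at 263.6 mg/kg (adjusted p = 0.0272) and by 0.55 ± 0.08 at 527.1 mg/kg, or 1.46-fold (adjusted p = 0.000907), and was 0.60 ± 0.08 higher at 1054.2 mg/kg. The differences at 66 (0.17 ± 0.08) and 132 mg/kg (0.32 ± 0.08, adjusted p = 0.106) did not pass. The call at 263.6 mg/kg was lost without control replicates 1, 2, 3 or 4 or dosed replicates 1 or 2 (adjusted p 0.0525 to 0.0876), and with only the compared groups in the fit (adjusted p = 0.0502).

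Cryl1, the gulonate dehydrogenase gene, was at 8.96, 8.79, 8.73, 8.68 and 8.89 log2 in the controls. It was at 9.53, 9.40 and 9.62 at 66 mg/kg, 10.07, 9.70 and 9.71 at 132, 10.25, 9.87 and 9.83 at 263.6, 10.67, 9.82 and 10.48 at 527.1, and 10.59, 10.47 and 10.76 at 1054.2 mg/kg. All dosed rats were above all controls, and the 132 mg/kg rats were all above the 66 mg/kg rats. The gene rose 2.02-fold at 132 mg/kg (1.02 ± 0.15 log2, adjusted p = 0.0108), 2.26-fold at 263.6 mg/kg (1.17 ± 0.15, adjusted p = 0.000739) and 2.86-fold at 527.1 mg/kg (1.51 ± 0.15, adjusted p = 1.15e-05). The difference at 66 mg/kg, 0.71 ± 0.15, did not pass (adjusted p = 0.370). The level at 1054.2 mg/kg was 3.48-fold higher than in controls, and the last step was 0.28 ± 0.17 log2 with overlapping groups. The call at 132 mg/kg was lost without dosed replicate 1 (adjusted p = 0.0692).

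Aldh1a1 had the smallest spread of these 4 genes at 66 mg/kg, with 12.89, 12.90 and 12.93 log2, against 12.38, 12.49, 12.41, 12.44 and 12.30 in controls. It was at 13.14, 12.77 and 13.17 at 132 mg/kg, 13.60, 13.36 and 13.36 at 263.6, 13.61, 13.32 and 13.40 at 527.1, and 13.69, 13.69 and 13.93 at 1054.2 mg/kg. The groups of 263.6 and 527.1 mg/kg overlapped, with a difference of 0.00 ± 0.11 log2, while the 3 rats at 1054.2 mg/kg lay above the 3 at 527.1 mg/kg by 0.33 ± 0.11. The gene rose by 0.62 ± 0.10 at 132 mg/kg (adjusted p = 0.0156), and 2.05-fold both at 263.6 mg/kg (1.04 ± 0.10, adjusted p = 1.27e-05) and at 527.1 mg/kg (adjusted p = 8.36e-06). At 66 mg/kg the difference was 0.50 ± 0.10 (adjusted p = 0.277). The call at 132 mg/kg was lost without control replicate 1 or dosed replicate 1 (adjusted p 0.0546 and 0.0845), and with only the compared groups in the fit (adjusted p = 0.102). The top dose had a level 2.57-fold that of controls.

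Hsd17b2 stood apart from these 4 by the doses at which it increased. Its level was 10.39, 10.86, 10.34, 10.45 and 10.42 log2 in the controls, 11.02, 10.75 and 10.31 at 66 mg/kg, 10.97, 10.79 and 11.40 at 132, 11.03, 11.25 and 11.86 at 263.6, 12.51, 12.22 and 12.69 at 527.1, and 12.46, 12.55 and 12.09 at 1054.2 mg/kg. The rats at 66 and 132 mg/kg overlapped the controls, while all 3 rats at 527.1 mg/kg were above all rats at the lower doses. It rose by 0.89 ± 0.19 log2 at 263.6 mg/kg (adjusted p = 0.0447) and 3.94-fold at 527.1 mg/kg (1.98 ± 0.19, adjusted p = 8.36e-06). The first of these calls was lost without control replicates 1, 3, 4 or 5 or dosed replicates 2 or 3 (adjusted p 0.0627 to 0.145). It was also lost with centred medians (0.0557), a variance trend with a robust prior (0.0541) and only the compared groups in the fit (0.0502). In the comparison of 527.1 with 66 mg/kg it rose 3.44-fold (1.78 ± 0.22, adjusted p = 0.000584), the ninth largest difference in size of 31042 probe sets, and with any 1 of the 6 rats left out the adjusted p was 0.0012 to 0.0093. With only the compared groups in the fit it was 0.00577. The step between 263.6 and 527.1 mg/kg alone was 1.09 ± 0.22 log2 and did not pass (adjusted p = 0.291). Its mean at 1054.2 mg/kg was 3.66-fold that of controls and 0.11 ± 0.22 log2 below that of 527.1 mg/kg.

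**Figure D2:**
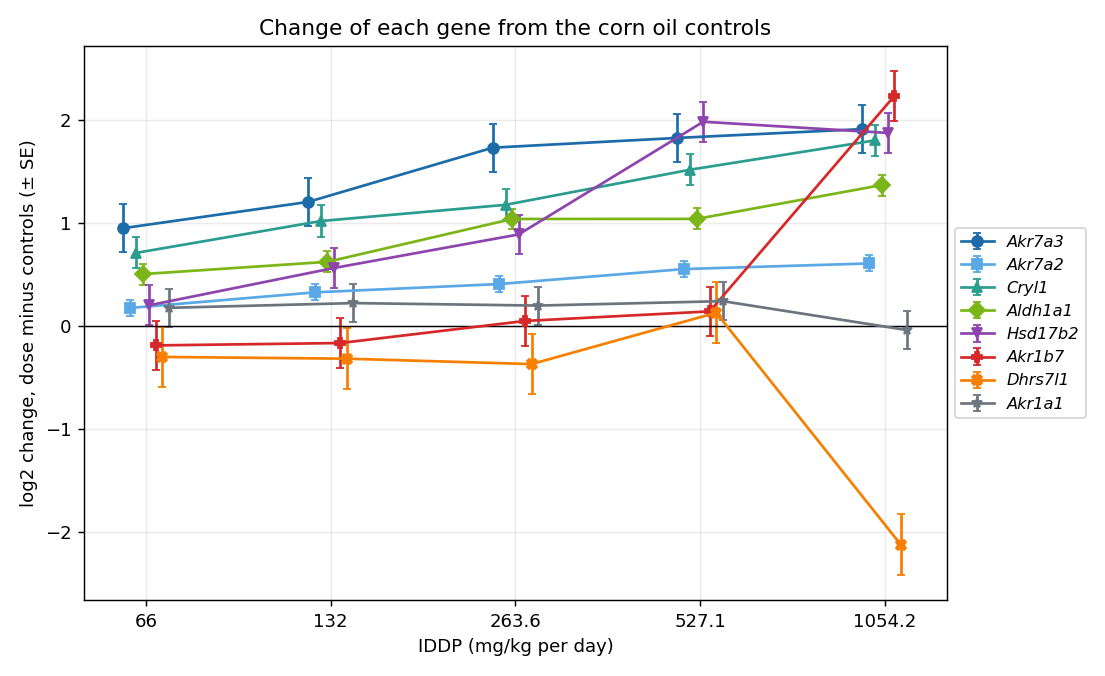
Change of each gene from the controls (log2, dose mean minus control mean, n = 3 against n = 5) at each dose, with bars of 1 standard error from the limma fit. Points are shifted sideways so that bars do not hide each other. Hsd17b2 reaches 1.98 at 527.1 mg/kg, and Akr1b7 and Dhrs7l1 lie between -0.37 and 0.14 up to 527.1 mg/kg and at 2.23 and -2.12 at 1054.2 mg/kg.

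Akr1b7 was dim and without a difference that passed up to 527.1 mg/kg. Its level was 4.39, 4.92, 4.87, 4.70 and 4.64 log2 in the controls, 4.44, 4.23 and 4.87 at 66 mg/kg, 4.63, 4.32 and 4.66 at 132, 5.06, 4.23 and 4.96 at 263.6, and 5.29, 4.60 and 4.64 at 527.1 mg/kg. At 1054.2 mg/kg it was 7.46, 6.23 and 7.12, so that the lowest of these rats was well above every other rat of the study. The difference from controls was -0.19 ± 0.24, -0.17 ± 0.24, 0.05 ± 0.24 and 0.14 ± 0.24 log2 from 66 to 527.1 mg/kg. The 95% interval at 527.1 mg/kg was -0.36 to 0.64. At 1054.2 mg/kg the level was 4.69-fold that of controls (2.23 ± 0.24) and 4.26-fold that of 527.1 mg/kg (2.09 ± 0.27). By size this last step was the fifth largest of all probe sets, a rank favoured by the choice of the genes. Values of dim probe sets are compressed by background signal, which limits how far these folds can be read as folds of RNA. Markers of the adrenal cortex, where Akr1b7 is abundant in the mouse, had a mean over 4 genes of 5.14 to 5.40 log2 per rat at 1054.2 mg/kg and 5.25 to 5.51 in controls, and 0 of the 4 passed at any dose.

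Dhrs7l1 was bright and took the opposite course. Its level was 12.60, 12.19, 12.41, 12.75 and 12.66 log2 in the controls, 12.79, 11.85 and 12.01 at 66 mg/kg, 11.93, 12.17 and 12.51 at 132, 11.18, 12.70 and 12.56 at 263.6, and 12.52, 12.45 and 12.98 at 527.1 mg/kg. At 1054.2 mg/kg it was 10.17, 11.03 and 9.99, below every other rat, the nearest being 263.6 mg/kg replicate 1 at 11.18. The differences from controls at the 4 lower doses were -0.30, -0.32, -0.37 and 0.13, each ± 0.29, and none passed. The interval at 527.1 mg/kg was -0.49 to 0.74 log2. The level at the top dose was 4.36-fold lower than in controls (-2.12 ± 0.29) and 4.76-fold lower than at 527.1 mg/kg (-2.25 ± 0.33), the second largest step in size of all probe sets. The choice of the genes favours that rank. Without 263.6 mg/kg replicate 1 the difference at that dose was 0.11.

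Akr1a1, which makes gulonate upstream of Cryl1, had no difference that passed from 66 to 527.1 mg/kg. Its level was 11.87, 12.57, 12.70, 12.74 and 12.66 log2 in the controls and 11.87, 12.68 and 12.85 at 1054.2 mg/kg, while all 12 rats of the doses between lay from 12.59 to 12.83. The wide spread at both ends came from 1 rat each, control replicate 1 and 1054.2 mg/kg replicate 1, with 3' minus 5' differences of 1.24 and 1.74. The differences from controls were 0.17, 0.22, 0.20 and 0.24, each ± 0.18, from 66 to 527.1 mg/kg, and 0.015, 0.061, 0.037 and 0.080 without control replicate 1. The change at 1054.2 mg/kg was -0.04 ± 0.18 log2, and 0.26 without its replicate 1.

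Against the array as a whole, limma called 0 of the 8 genes at 66 mg/kg, where 0.00644% of all probe sets were called. At that dose the groups did not overlap for 4 of the 8 genes (Akr7a3, Akr7a2, Aldh1a1 and Cryl1), against 4.59% of all probe sets. With only the 66 mg/kg and control arrays in the fit, Akr7a3, Aldh1a1 and Cryl1 passed (adjusted p 0.0496, 0.0496 and 0.0209). At 132 mg/kg 2 of the 8 were called, both higher, against 0.0677% of all probe sets (0.0354% higher and 0.0322% lower), and 4 did not overlap the controls, against 8.17%. Leaving out 132 mg/kg replicate 3 gave 4 calls among the 8, in a fit that called 1482 of all probe sets. Leaving out replicate 1 of that dose gave 0, in a fit that called 6. At 263.6 mg/kg 5 were called, all higher, against 0.428% (0.274% higher and 0.155% lower), and 5 did not overlap, against 9%. The same 5 were called at 527.1 mg/kg, all higher, against 1.68% (1.19% higher and 0.483% lower), and did not overlap, against 11.9%. These 5 calls at 527.1 mg/kg held with any 1 rat left out. The counts from 66 to 527.1 mg/kg are also only a description. The genes were chosen with these doses known and with the same controls, which favours counts above the share of all probe sets. At 1054.2 mg/kg, where the choice of the genes fixes the count and nothing is read from it, 7 were past the threshold (6 higher and 1 lower), beside 3.3% of all probe sets (1.86% higher and 1.44% lower), and 7 did not overlap, beside 12.4%. The median change of the 8 was 0.19, 0.44, 0.65 and 0.79 log2 from 66 to 527.1 mg/kg. It was 1.58 at 1054.2 mg/kg, where the choice of the genes makes it large and nothing is read from it. The median of all probe sets lay between -0.02 and 0.01 at every dose. In the comparison of 527.1 with 66 mg/kg 1 of the 8 passed and was higher, against 0.0966% of all (0.0644% higher and 0.0322% lower), and 4 did not overlap, against 13.4%. In the steps from 66 to 132, 132 to 263.6 and 263.6 to 527.1 mg/kg limma called 0 of the 8 and 0 of all probe sets. In these steps 2, 3 and 1 of the 8 did not overlap, against 7.97%, 9.26% and 8.21%. The step from 527.1 to 1054.2 mg/kg shares the top-dose rats with that choice, so its count is likewise only a description: 2 of the 8, Akr1b7 and Dhrs7l1, were past the threshold, beside 0.0129% of all probe sets (0.00966% higher and 0.00322% lower), and 3 did not overlap, beside 9.95%. Dhrs7l1 fell short without replicates 1 or 3 of either dose, with the replicate number as a block and with a variance trend and robust prior. Both genes fell short with only the compared groups in the fit.

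**Figure D3:**
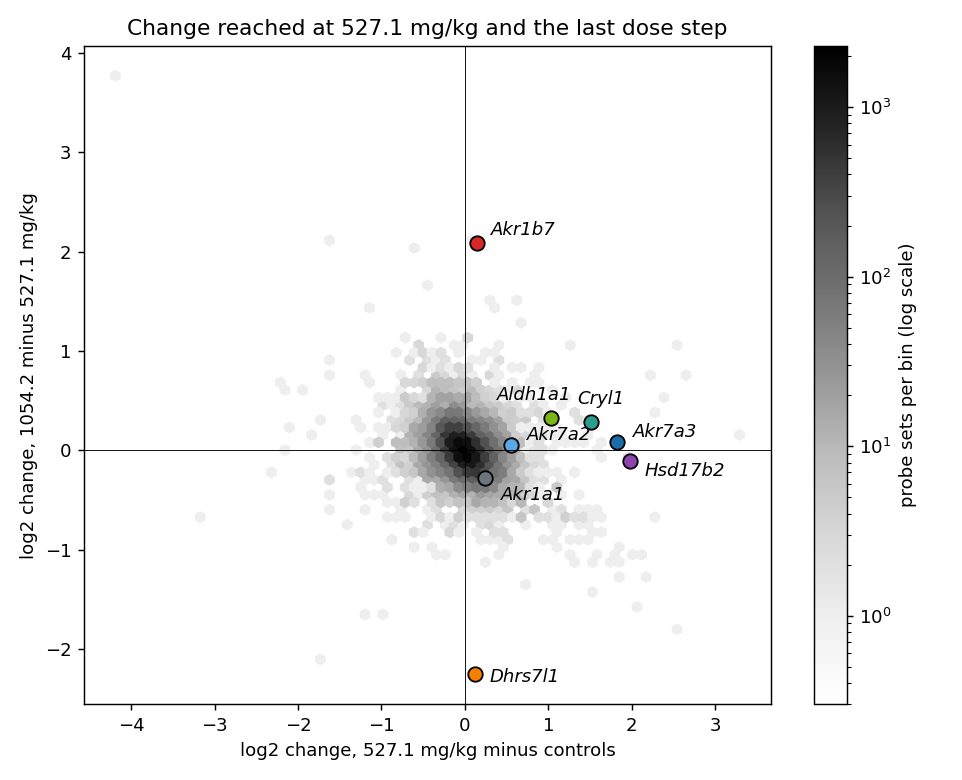
Log2 change already present at 527.1 mg/kg (horizontal, minus controls) against the step from 527.1 to 1054.2 mg/kg (vertical) for all 31042 probe sets, as grey bins, and the 8 genes as coloured points. The axes share the 527.1 mg/kg rats, so a slope downward is built in. Akr1b7 and Dhrs7l1 lie near zero on the horizontal axis and at 2.09 and -2.25 on the vertical one. Hsd17b2, Akr7a3, Cryl1 and Aldh1a1 lie to the right, at -0.11, 0.09, 0.28 and 0.33 on the vertical axis.

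How single rats departed from the mean of their dose group was alike for some of the genes. Over the 20 arrays, which share the RNA and array of a rat, Pearson's r of these deviations was 0.74 between Akr7a3 and Cryl1, 0.69 between Akr7a3 and Akr7a2 and 0.66 between Akr7a2 and Cryl1. With Hsd17b2 the deviations of Akr7a3, Akr7a2, Cryl1 and Aldh1a1 had r between -0.16 and 0.05. Akr1b7 and Dhrs7l1 had r = -0.54, and over all 28 pairs of genes the median was 0.09. A rat that shows this is 527.1 mg/kg replicate 2, which was 0.77 below its group mean for Akr7a3 and 0.50 below it for Cryl1. Replicate 2 of every other group also lay below its group mean for these genes, by less. Whether the likeness follows the replicate number was not tested. Without 527.1 mg/kg replicate 2, Akr7a3 and Cryl1 also passed in the comparison of 527.1 with 66 mg/kg (adjusted p = 0.0437 and 0.00258).

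**Figure D4:**
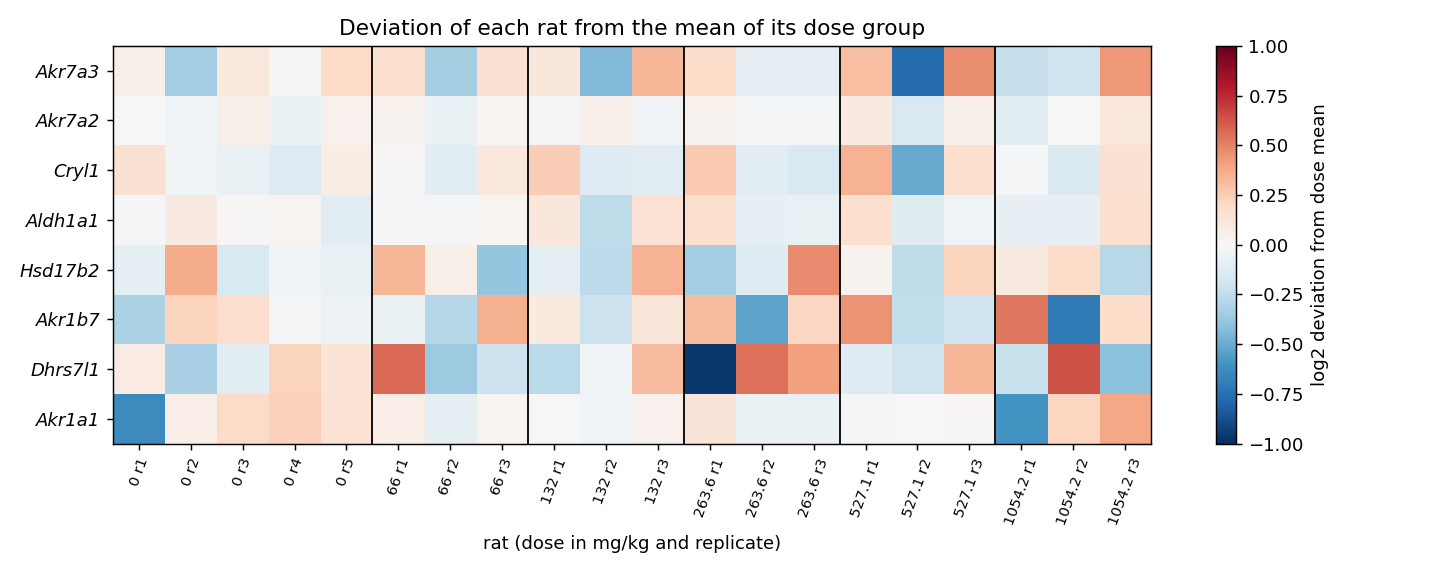
Deviation of each rat from the mean of its dose group (log2, red above and blue below the mean) for the 8 genes, with rats in columns from 0 to 1054.2 mg/kg and black lines between doses. Akr7a3 and Cryl1 are both low in 527.1 mg/kg replicate 2, and Akr1a1 is low in control replicate 1 and 1054.2 mg/kg replicate 1.

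The other genes whose level ran most like each of the 8 over the 20 arrays (highest Pearson's r, given as a description) differed between the courses. For Aldh1a1 they were Abcc3, an efflux transporter of organic anions (r = 0.98), and the glutathione transferase Gsta3 (0.97), and the same pair led for Cryl1 (0.95 and 0.96). For Akr7a3 they were Abcc3 (0.94) and Reep6 (0.94), and for Akr7a2 the clock gene Per3 (0.94) and Abcc3 (0.94). For Hsd17b2 they were Dbp (0.94) and Nr1d2 (0.93), both transcription factors of the circadian clock. For Akr1b7 they were Srxn1 (0.86), which encodes sulfiredoxin, and Gclc (0.84), the catalytic subunit of glutathione synthesis. For Dhrs7l1 they were Crym (0.87) and Stac3 (0.85). Deviations within dose groups ran together less for some of these pairs, with r = 0.82 for Aldh1a1 and Abcc3, 0.34 for Hsd17b2 and Dbp, and 0.12 for Akr1b7 and Srxn1. For Akr1a1 the closest were Fsd1l (0.72) and Apc2 (0.71), whose changes at 1054.2 mg/kg were 0.07 and -0.08.

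Most relatives of the 8 genes did not pass at any dose, and neither did most probe sets of the array. Of all probe sets 1.68% passed at 527.1 mg/kg and 3.3% at 1054.2 mg/kg (1.86% higher and 1.44% lower). Of 14 other aldo-keto reductases 0 passed in limma from 66 to 527.1 mg/kg, and at 1054.2 mg/kg Akr1e2, a reductase of anhydrofructose, rose (0.46 ± 0.09 log2, adjusted p = 0.00731) and 13 did not pass. Their median change at 1054.2 mg/kg was -0.04, beside -0.01 over all probe sets. Of 45 other short-chain dehydrogenases 5 rose at the top dose, while 40 missed the threshold (median 0.06). They were Bdh2, which acts on hydroxybutyrate (1.06 ± 0.16, adjusted p = 0.000477), Cbr4, a mitochondrial carbonyl reductase (0.55 ± 0.14, adjusted p = 0.0289), Dhrs1 (0.53 ± 0.11, adjusted p = 0.00881), Decr1, of unsaturated fatty acid oxidation (0.49 ± 0.10, adjusted p = 0.00637), and Dhrs4, named after its value was seen (0.28 ± 0.07, adjusted p = 0.0370). Dhrs4 was not put through the alternative fits. Bdh2 was at 6.99, 7.13 and 7.19 at 1054.2 mg/kg, against 5.57 to 6.45 in the 5 controls. Dhrs1 alone of the 45 also rose at 527.1 mg/kg (0.48 ± 0.11, adjusted p = 0.0249). Of 16 other aldehyde dehydrogenases Aldh3b1, which oxidises lipid aldehydes, rose at 527.1 mg/kg (0.76 ± 0.15, adjusted p = 0.00952) and at 1054.2 mg/kg (0.57 ± 0.15, adjusted p = 0.0346), and 15 did not pass. Akr1e2, Dhrs1 and Cbr4 lost their calls at 1054.2 mg/kg without dosed replicate 3 (adjusted p 0.0527, 0.0785 and 0.104). Cbr4 also lost it without dosed replicate 2 (adjusted p = 0.225) or control replicates 3, 4 or 5. Aldh3b1 lost its call there with any 1 rat left out but control replicate 1 (highest 0.125), and at 527.1 mg/kg without dosed replicates 1 or 3. Dhrs1 at 527.1 mg/kg was lost without control replicate 3, without any 1 of the dosed rats, and with only the compared groups in the fit (adjusted p = 0.0573).

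Genes of the glucuronate and gulonate route, in which Akr1a1 and Cryl1 act, went both ways. At 1054.2 mg/kg 2 of 8 rose, 2 fell and 4 did not pass, where 1.86% of all probe sets rose and 1.44% fell. Ugdh, which makes UDP-glucuronate, rose (0.50 ± 0.13, adjusted p = 0.0411), as did Sord, the sorbitol dehydrogenase that also reduces xylulose (0.45 ± 0.08, adjusted p = 0.00325, with a second probe set at 0.29 that did not pass). Rgn (-0.42 ± 0.10, adjusted p = 0.0226) and Gulo (-0.81 ± 0.11, adjusted p = 0.000237), which carry out the last steps from gulonate to ascorbate, fell. Gulo was at 12.37, 12.14 and 12.04 at 1054.2 mg/kg, against 12.90 to 13.07 in controls, and its second probe set also fell there (-0.95). At 527.1 mg/kg Gulo fell (-0.46 ± 0.11, adjusted p = 0.0385), while its second probe set, at -0.81, did not pass (adjusted p = 0.0935). The call of Gulo at 527.1 mg/kg was lost with any 1 rat left out but control replicate 2, that of Ugdh with any 1 left out but control replicate 1, and that of Rgn without 1054.2 mg/kg replicate 3. Of 10 alcohol dehydrogenases of the medium-chain family Adh7 (0.89 ± 0.18, adjusted p = 0.00731), Adh4 (0.71 ± 0.15, adjusted p = 0.0122) and Sord rose at 1054.2 mg/kg, 7 did not pass, and 0 passed at 527.1 mg/kg. Adh7 was lost without dosed replicates 2 or 3 and Adh4 without replicate 3. Of 4 genes of the 3-hydroxyacyl-CoA dehydrogenase family, to which Cryl1 is related, 0 passed in limma, and the largest change was in Ehhadh (0.46 ± 0.16, adjusted p = 0.130, and 0.0415 with only the compared groups in the fit).

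**Figure D5:**
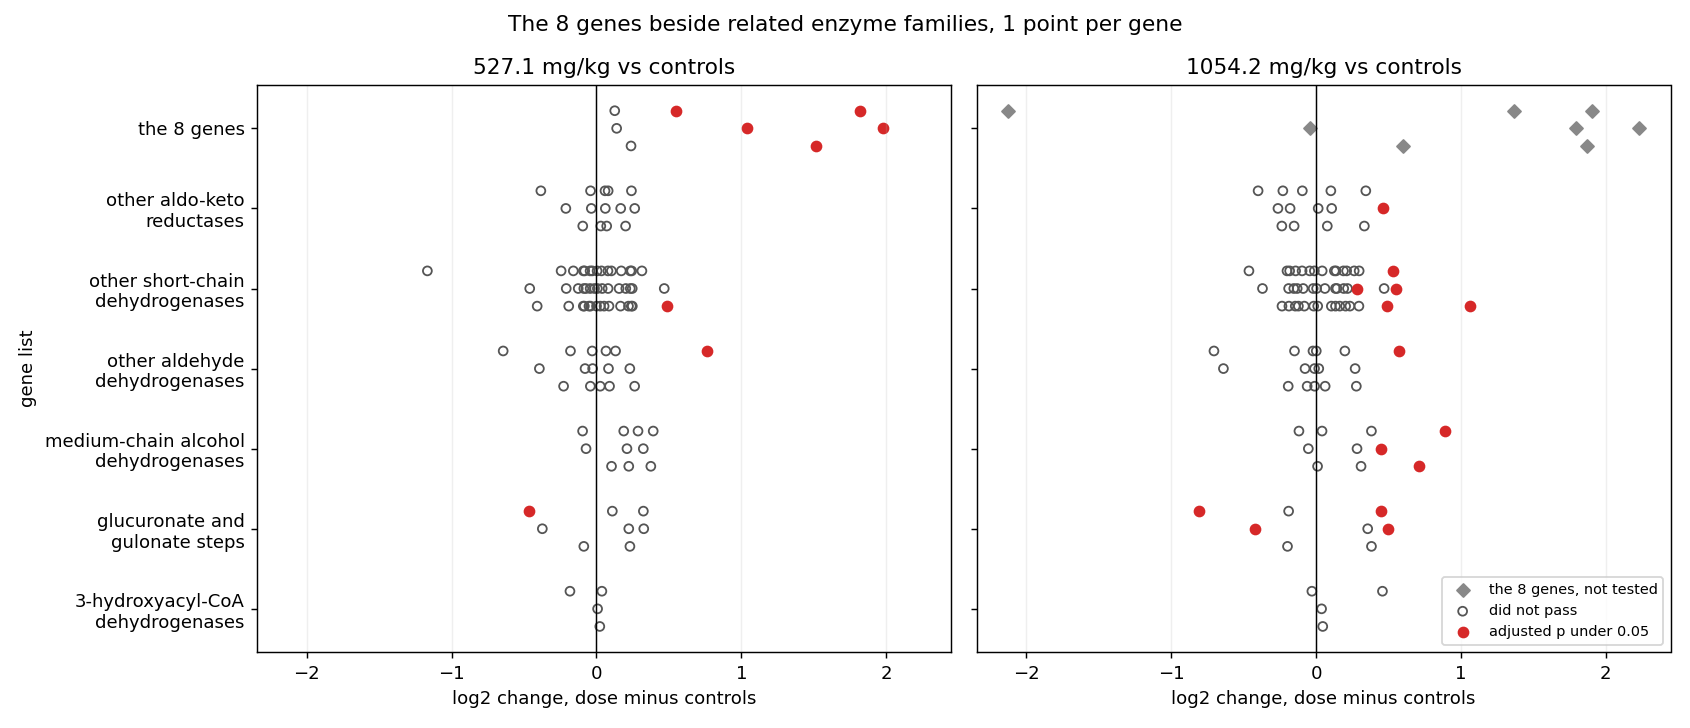
Log2 change from controls at 527.1 mg/kg (left) and 1054.2 mg/kg (right) for the 8 genes and 6 lists of related enzymes, 1 point per gene. Red points had an adjusted p under 0.05 in limma, grey diamonds are the 8 genes at 1054.2 mg/kg, given without a test, and the spread within a row is only to separate points. The 8 genes reach from -2.12 to 2.23 at 1054.2 mg/kg, and the related lists from -0.81 to 1.06. The 8 were chosen by their change at that dose, which favours their wider range.

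The list means of Kupffer cell, endothelial and stellate cell markers were lower in each dosed group than in controls, beside the changes of the 8 genes. That of cholangiocyte markers was higher, at 6.83 log2 at 1054.2 mg/kg and 6.55 in controls. In bulk tissue fewer cells of a type and less RNA per cell cannot be told apart. At the top dose 6 of 8 Kupffer cell and macrophage markers, 2 of 5 endothelial markers and 4 of 7 stellate cell and fibroblast markers fell. Of all probe sets 1.44% fell at that dose. The mean of the Kupffer list per rat was 9.57 to 9.64 log2 at 1054.2 mg/kg and 9.93 to 10.41 in controls, that of the endothelial list 9.33 to 9.59 and 9.67 to 10.05, and that of the stellate list 7.68 to 7.84 and 7.91 to 8.31. At 527.1 mg/kg, where 5 of the 8 genes rose, 1 of 5 endothelial markers fell, while 0 of 8 Kupffer and 0 of 7 stellate markers passed in limma. Per-rat means also lay wholly below the controls at lower doses: the Kupffer list at 132 mg/kg (9.50 to 9.73) and 263.6 mg/kg (9.84 to 9.93), the endothelial list at 263.6 mg/kg (9.42 to 9.52) and 527.1 mg/kg (9.41 to 9.57), and the stellate list at 263.6 mg/kg (7.51 to 7.85). The part of these cells in the results of the 8 genes was not tested. Of 5 cholangiocyte markers 1 rose at both of the highest doses, of 5 pancreas markers 1 fell at 1054.2 mg/kg, and 0 of 2 erythroid genes passed at either.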

How the data were processed

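The values are the log2 intensities deposited by the authors for 31099 probe sets on 20 arrays, made with RMA (the submitters' processing notes name the tool). Its version and the set of arrays it was run on were not stated. Each array was made from 100 ng of liver RNA, per the labels' protocols. Groups were taken from the sample titles. Apart from 57 Affymetrix controls, every probe set was kept, no filter on brightness was applied, and 31042 probe sets were tested in limma 3.58.1 under R 4.3.3 with 1 mean per dose over all 20 arrays. Tests were two-sided, with Benjamini-Hochberg adjustment over all tested probe sets and a threshold of 0.05. Errors of a change are standard errors. The group sizes in the labels' protocols match 1 array per rat, so p-values measure the spread between rats, and the number of arrays limits the precision.

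Of the tested probe sets 20826 carried 1 symbol, 436 several and 9780 are unnamed here. All 8 genes matched RefSeq symbols. The 6 lists of related enzymes held 110 distinct genes, of which 95 were measured, each read from its probe set of highest mean. From each list the text names up to 4 genes of largest change among those past the threshold at 1054.2 mg/kg and up to 2 at 527.1 mg/kg, or the 1 of largest change where none passed, and for each of the 8 genes the 2 other genes of highest Pearson's r. The genes and lists were chosen with earlier results of these data known. Alternatives were a brightness filter, centred medians, quantile normalization again, the replicate number as a block, only the groups compared in the fit, a variance trend with a robust prior, the 3' minus 5' difference as a covariate, and each array left out in turn. The procedure was tested on simulated data. Promoter stretches were searched on both strands over the 250 bases before the start.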

Additional observations from a re-analysis of the deposited data

Results flagged for a closer look

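Among the 5 controls, a rat far from the other 4 was looked for with Dixon's test, which picks out about 1 in 20 groups by chance. It was run in the 21 genes named with tests or values by dose, Dhrs4 left out. It picked out 2. Akr1a1 in control replicate 1 was at 11.87 log2, with the next rat at 12.57 and the highest at 12.74. Hsd17b2 in control replicate 2 was at 10.86 log2, with the next at 10.45 and the lowest at 10.34.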

How the results depend on the processing

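Leaving out each array in turn gave 0 to 3 probe sets past the threshold at 66 mg/kg, 6 to 1482 at 132 mg/kg (without its replicate 1 and its replicate 3), 38 to 193 at 263.6 mg/kg (without its replicate 2 and control replicate 5), 212 to 509 at 527.1 mg/kg, 405 to 1069 at 1054.2 mg/kg, 1 to 8 in the step to the top dose and 5 to 21 for 527.1 against 66 mg/kg. All arrays gave 2, 21, 133, 520, 1024, 4 and 30. Of the 8 genes, these fits called 0 to 0, 0 to 4, 3 to 4, 5 to 5, 7 to 7, 1 to 2 and 1 to 3 in the same order, against 0, 2, 5, 5, 7, 2 and 1 with all arrays. The choice of the genes favours their counts at 1054.2 mg/kg and in the last step. Nothing is read from those counts, in these fits or in the alternatives that follow. Without dim probe sets, which removes Akr1b7, 46 probe sets passed at 132 mg/kg and 2 in the last step, with 1 of the 8 genes there. Centred medians gave 75 probe sets at 263.6 mg/kg. Quantile normalization again gave 50 at 132 mg/kg, 221 at 263.6 mg/kg and 2 of the 8 genes for 527.1 against 66 mg/kg. With only the compared groups in the fit, 11 probe sets and 3 of the 8 genes passed at 66 mg/kg, 3 of the 8 at 263.6 mg/kg, 826 probe sets at 527.1 mg/kg, 0 probe sets and 0 of the 8 genes in the last step, and 88 probe sets for 527.1 against 66 mg/kg. A variance trend with a robust prior gave 12 probe sets at 132 mg/kg, 1 of the 8 genes in the last step and 2 for 527.1 against 66 mg/kg. With the 3' minus 5' covariate 839 probe sets passed at 527.1 mg/kg, 8 in the last step, and 2 of the 8 genes for 527.1 against 66 mg/kg. Without the 2 arrays of highest 3' minus 5' difference, an alternative chosen after seeing the data, 11 probe sets passed at 132 mg/kg, and 56, with 3 of the 8 genes, at 263.6 mg/kg. Akr7a2 and Hsd17b2 lost their calls at 263.6 mg/kg there (adjusted p 0.0806 and 0.0938). Aldh1a1 passed for 527.1 against 66 mg/kg after quantile normalization again, with the variance trend and with the covariate (0.0410 to 0.0453), and Rgn at 527.1 mg/kg without dim probe sets, with the variance trend and with only the compared groups (0.0363 to 0.0453). The cause of these shifts was not tested.

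Deviations of same-numbered rats of different groups had r from -0.35 to 0.47 over all probe sets (45 pairs, median 0.07, 15 over 0.1). For rats of different numbers r was -0.59 to 0.38 (120 pairs, median -0.02, 28 over 0.1). Replicate 2 lay below its group mean in every group for Akr7a3 and Cryl1, but not for Akr7a2. The main fit did not take the numbers as pairs, and what the numbers stand for was not tested. With the replicate block 78 probe sets and 3 of the 8 genes passed at 263.6 mg/kg, 283 probe sets at 527.1 mg/kg, 614 at 1054.2 mg/kg, 1 probe set and 1 of the 8 genes in the last step, and 2 of the 8 for 527.1 against 66 mg/kg. With that block Akr7a3 passed at 132 mg/kg (adjusted p = 0.0119) and Cryl1 for 527.1 against 66 mg/kg (0.0433). Lost with it were Aldh1a1 at 132 mg/kg (0.0762), Akr7a2 and Hsd17b2 at 263.6 mg/kg (0.0961 and 0.159), Aldh3b1, Dhrs1 and Gulo at 527.1 mg/kg (0.0612, 0.0581 and 0.130), and Adh4, Aldh3b1, Cbr4, Rgn and Ugdh at 1054.2 mg/kg (0.0791 to 0.142).

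The changes that turned sign were of Akr1a1, Akr1b7, Dhrs7l1, Akr7a3, Akr7a2 and Hsd17b2, each in a comparison in which it had not been called. Akr1a1 at 1054.2 mg/kg was 0.083 with the replicate block, and Akr1b7 at 132 mg/kg was 0.024 with the 3' minus 5' covariate. With 1 array left out, Akr1b7 ranged from -0.11 to 0.31 at 263.6 mg/kg and -0.085 to 0.26 at 527.1 mg/kg, Dhrs7l1 from -0.65 to 0.11 and -0.040 to 0.23 at the same doses, and Akr1a1 from -0.23 to 0.26 at 1054.2 mg/kg. In the last step Akr7a3 ranged from -0.30 to 0.32, Akr7a2 from -0.022 to 0.11, Akr1a1 from -0.47 to 0.019 and Hsd17b2 from -0.24 to 0.028. Another probe set per gene could not be tried, since each of the 8 has 1. The table has no detection calls, so how far dim signals stood above background is unknown.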
